A study of Arabidopsis thaliana with 6 samples.

Results

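The genes described here had a low signal 1 h after estradiol was brushed onto Arabidopsis thaliana meristems that carried an inducible AMY3C-EY construct. A probe was chosen if its log2 level at 1 h was at least 1 lower than at 0 h, at 6 h of estradiol and at 6 h of DMSO, with a spot well above background on those 4 arrays and a match to 1 locus. Of 24770 probes that could be judged, 491 passed. Leaving out 6 genes (2 heat shock, 3 endoplasmic reticulum chaperone and 1 histone gene; no MCM or cyclin gene passed) left 485 probes of 456 genes, of 18410 genes in all (2.48%). Of the 456 genes, 192 have a symbol and 264 a locus name only. The members were chosen by their measured levels, so their low level at 1 h is a description and no finding.

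All plants carried XVE, a chimeric activator that switches on its target promoter when estradiol is present, and were 21 days old. The AMY3C-EY plants were untreated (0 h), brushed with 20 µM 17-β-estradiol and harvested after 1, 3 or 6 h, or brushed with the solvent DMSO and harvested after 6 h. Plants with XVE alone were brushed with 20 µM estradiol and harvested after 6 h (the XVE array). Each group was 1 pool of 30 plants, shoot apical meristem with juvenile leaves, on 1 single-colour array, so no test was possible and no difference below has a replicate check. Both controls, XVE alone and DMSO, were taken at 6 h only. At 1 h, estradiol, AMY3C-EY, brushing and harvest time therefore cannot be told apart. The labels used here do not say what AMY3C-EY encodes, how many lines were used or at which clock time plants were harvested. The 4 time course arrays shared 1 slide, and a second slide held XVE and DMSO.

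The 75th percentile of the processed signal ran from 341.6 on the XVE array to 1435.4 at 3 h, and between 67.9% and 77.5% of the spots of an array were well above background. Of 5 meristem markers 4 were measured (STM, CLV3, KNAT1 and CLV1, not WUS), as were 5 of 5 mesophyll, 4 of 4 epidermis, 3 of 3 trichome and 6 of 6 stomatal markers. At 1 h the median difference from 0 h was -0.24 over the meristem markers, 0.31 over the mesophyll, -0.36 over the epidermis and -0.27 over the stomatal markers. The trichome markers GL1, GL2 and GL3 were all lower (median -0.58), the 4 measured vascular markers were at 0.01, and the 3 measured root markers at -0.78 with 2 lower. All genes together had a median of -0.07. The part of these cell types in the members' levels was not tested. The pool held leaf as well as meristem RNA, and in such bulk samples fewer cells of a type and less RNA per cell cannot be told apart. Each level is a log2 signal on which the array's own 75th percentile is close to 0. A difference of 1 is 2-fold. Levels of different probes are not comparable.

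The members do not form 1 pathway, and 310 of the 456 genes were put in no role group. The other 146 fell into 14 groups by the known roles of their products. As background, chlorophyll synthesis, starch turnover and many light signalling genes are driven by light and by the circadian clock, so their transcripts pass through a high and a low phase each day. Expansins and related wall proteins let growing cells extend, while replication and cytokinesis genes are used in the dividing cells of the meristem. Ribosome assembly in the nucleolus is tied to growth as well.

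The members' median level was 1.05 untreated, -0.55 after 1 h, 0.45 after 3 h, 1.26 after 6 h of estradiol, 1.01 in XVE plants and 1.57 with DMSO. All 485 probes were also well above background on the 3 h and XVE arrays. The median difference of 1 h from 0 h was -1.50, that from 6 h of estradiol -1.41 and that from DMSO -1.77. Members make up 1.96% of the probes judged. Taken singly, the 3 contrasts hold 6.45%, 5.62% and 8.05% of the probes at least 2-fold lower at 1 h, in the same order. Just inside the threshold were AT3G03826, AT5G54970 and AT2G34150 with smallest differences of 1.0007, 1.0010 and 1.0017. Just outside were AT2G27385 at 0.9991, CRR7 at 0.9990 and AT3G07010 at 0.9988.

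**Figure D1:**
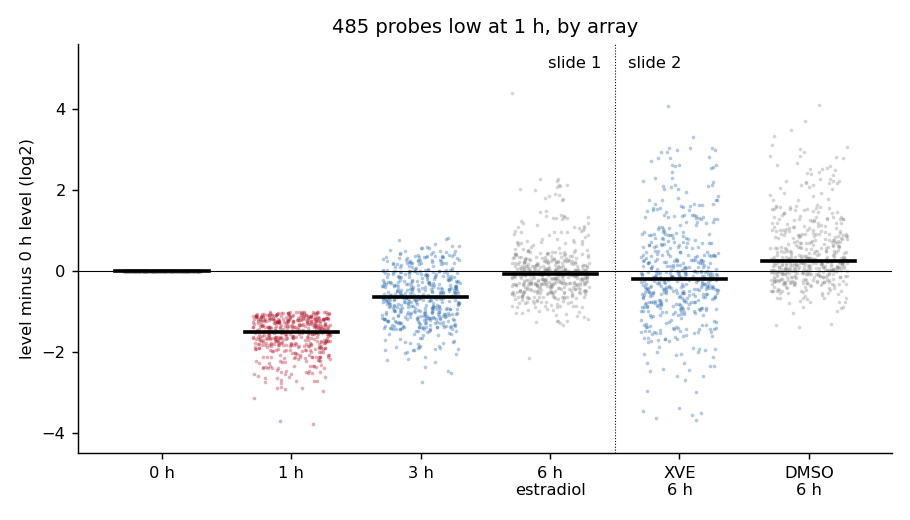
Level of each of the 485 member probes minus its own 0 h level (log2, vertical axis) on the 6 arrays (horizontal axis). Each point is 1 probe, black bars are medians, and the dotted line parts the 2 slides. The 1 h points lie at least 1 below 0 by the rule, the 3 h median is -0.65, and the XVE points spread from -3.69 to 4.08.

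The 3 h array was not used to choose the members. At 3 h the median member stood 0.89 above its 1 h level and 0.65 below its 0 h level (a 3 h minus 0 h difference of -0.65). At least 2-fold above 1 h were 204 of 485 probes (42.1%), against 2.51% of all probes tested. At least 2-fold below 0 h were still 153 (31.5%), against 4.62% of all probes. Another 80 probes were above their 0 h level and 19 were below their 1 h level. These contrasts share the 1 h or the 0 h array with the rule, so part of such a difference is set by the choice of members.

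The XVE array was not used either. There the median member stood 1.24 above 1 h, and 293 probes (60.4%) were at least 2-fold above, against 9.52% of all probes. Against 0 h the members spread both ways, with 91 at least 2-fold lower (18.8%, against 7.31% of all probes) and 79 at least 2-fold higher (16.3%, against 8.89%). The contrast of XVE with 3 h shares no array with the rule. In it the median was 0.37, with 143 probes at least 2-fold higher on the XVE array (29.5%, against 7.38% of all) and 23 lower (4.74%, against 3.45%). However, XVE shared its slide and harvest time with DMSO, which the rule set high, and 3 h shared its slide with 1 h. A difference between slides or times can therefore enter this contrast through the choice of members.

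On both extra arrays 133 member probes (27.4%) were at least 2-fold above 1 h, against 1.26% of all probes, a contrast that shares the 1 h array with the rule. On neither were 121 (24.9%), while 71 passed at 3 h only and 160 on the XVE array only. The name "lowered only at 1 h" therefore holds for a minority of the members if both extra arrays are asked, and they are called genes low at 1 h here. The lowest of the 6 levels was on the 1 h array for 445 of the 485 probes (23.9% of all probes), but the rule fixes this for 3 of the 5 other arrays, so nothing is read from it.

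**Figure D2:**
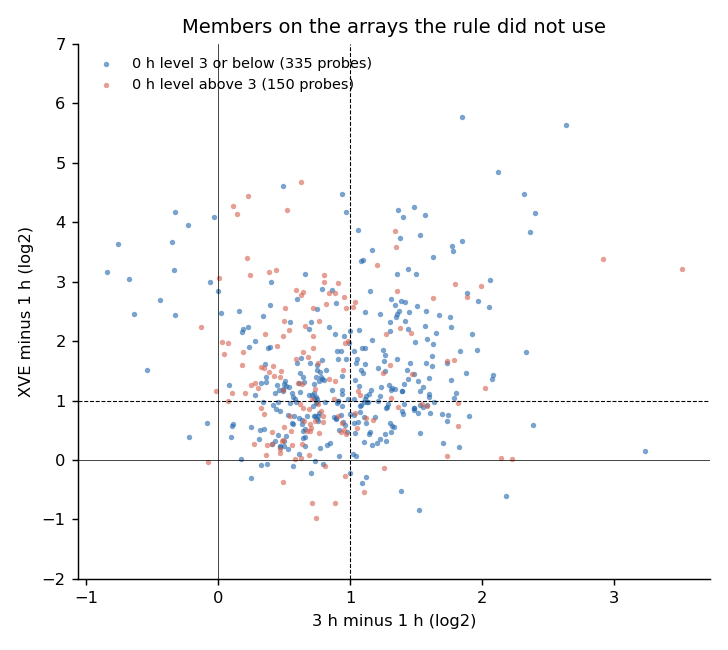
Each point is 1 member probe, with its 3 h level minus its 1 h level (log2, horizontal axis) and its XVE level minus its 1 h level (log2, vertical axis). Dashed lines mark 2-fold and colours part probes by their 0 h level. The 133 probes in the upper right corner were at least 2-fold above 1 h on both arrays.

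Agreement between probes of a gene bears on which members rest on more than 1 spot. Of the 456 genes, 298 had 1 probe that could be judged and 158 had several. All probes passed in 15 of the 158, and 22 genes had more than 1 passing probe. The 197 other probes of the 158 genes had a median smallest difference of 0.10, against -0.23 over all probes tested. At 1 h 112 of them (56.9%) lay below all 3 arrays of the rule, against 33.8% of all probes, 85 did not, and 31 lay above all 3. The mean over all probes of the gene was at least 1 lower than on each array in 35 of the 158 genes. Over all 4921 genes with several probes judged, these included, it was so in 36. The mean holds the passing probes, and in the 15 genes whose probes all passed it could not fail. It was not lower than on all 3 arrays for GSTU18 (-0.00), PKP-BETA1, MES7, AT5G63190, AT4G38550 and AT5G62360.

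The agreement depended on how bright the passing probe was. Of the probes judged, 1752 had a 0 h level above 3, and 150 of these (8.56%) were members, against 335 of 23018 (1.46%) at 3 or below; this split was chosen after the values were seen, and the 0 h array is one that the rule used. Split instead by the mean of the 3 h and XVE levels, which the rule did not use, members were 115 of 1686 probes above 3 (6.82%) and 370 of 23084 at 3 or below (1.60%). For genes whose passing probe was above 3, the 66 other probes had a median smallest difference of -0.13, and 25 of them lay below all 3 arrays. For the rest, the median was 0.26 and 87 of 131 lay below all 3. With the split by the 3 h and XVE levels, the medians were -0.11 and 0.23, with 22 of 54 and 90 of 143 below all 3.

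**Figure D3:**
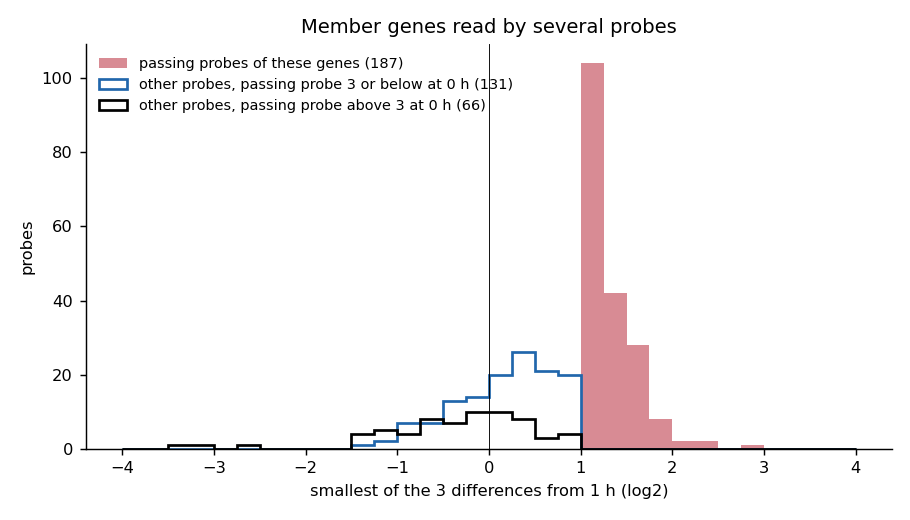
Smallest of the differences of 0 h, 6 h estradiol and DMSO from 1 h (log2, horizontal axis) for the probes of the 158 genes with several probes, as counts of probes (vertical axis). Filled bars are the 187 passing probes, at 1 or above by the rule, and outlines are the 197 other probes, which centre near 0.26 or, in genes with a bright passing probe, near -0.13.

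The place of a spot on the array also moved with membership. Members were 1.31%, 1.42%, 2.28% and 2.88% of the probes judged in 4 equal blocks of rows from the first row to the last. In the same order the median 1 h minus 0 h difference of all probes was 0.16, -0.01, -0.17 and -0.18. For 1 h minus 6 h of estradiol it was 0.10, 0.05, -0.09 and -0.18, and for 1 h minus DMSO 0.16, 0.02, -0.10 and -0.24. The median 3 h minus 0 h difference also varied by row, at 0.22, 0.00, -0.21 and -0.09. With every array centred within 12 bands of rows, 448 probes passed, 386 of them members. The part of brightness and of place in the members' levels was not tested beyond these values.

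The 15 genes whose probes all passed are the members with the most spots behind them. PORB, the light-dependent protochlorophyllide oxidoreductase of chlorophyll synthesis, had 5 of 5 probes with smallest differences from 1.01 to 1.85. The mean of its probes was 1.46 untreated, 0.11 after 1 h, 1.80 after 3 h, 2.75 after 6 h of estradiol, 3.67 in XVE plants and 3.29 with DMSO. PORB was thus lowest at 1 h, near its 0 h level again at 3 h, and higher on all arrays taken at 6 h than on the others.

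CCL (CCR-LIKE), known for a transcript that cycles with the circadian clock, had 4 of 4 probes, from 1.16 to 1.75. Its mean level was 0.73 untreated, -0.84 after 1 h, 1.28 after 3 h, 2.83 after 6 h, 3.30 in XVE plants and 3.13 with DMSO. MEE14, named for an arrest of embryos of mutant mothers, had 3 of 3 probes and stood at -0.25, -1.52, 0.01, 1.88, 2.54 and 2.39 in the same order. CCR1, a clock-controlled glycine-rich RNA-binding protein, passed with 2 of 2 probes by a small margin, 1.01 and 1.09. Its mean level went from 1.11 untreated to 0.06 after 1 h and 1.25 after 3 h, and it was 2.45, 2.40 and 2.64 after 6 h of estradiol, on the XVE array and with DMSO. These 4 genes share 1 shape, a low 1 h level between a middle level at 0 h and 3 h and a high level on every 6 h array, with or without estradiol or AMY3C-EY.

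P5CS1, which makes proline under drought and salt, had 2 of 2 probes with smallest differences of 1.29 and 1.97. Its mean was -1.14 untreated, -2.77 after 1 h, -1.07 after 3 h, -0.22 after 6 h, 0.06 in XVE plants and 0.13 with DMSO. EXP3 (expansin A3), a wall-loosening protein, passed with both of its probes, at 1.23 and 1.28. One was at 0.11, -1.12, 0.45, 0.43, 1.13 and 1.1 in the same order, and the other at -0.85, -2.13, -0.58, -0.44, -1.24 and -0.21. Both were lowest at 1 h, but they disagreed on the XVE array, the first being higher there than at 0 h and the second lower. EXL5, an EXORDIUM-like protein, had a mean of -0.61 untreated, -2.02 after 1 h, -0.56 after 3 h and between -0.20 and 0.21 on the 6 h arrays.

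BGLU44, a β-glucosidase, was at 2.67 untreated, 1.38 after 1 h, 3.03 after 3 h, 3.39 after 6 h, 3.92 in XVE plants and 4.08 with DMSO. HDT4, a plant-specific histone deacetylase of the nucleolar HD2 family, was at -0.25, -1.73, 0.18, -0.44, -0.67 and 0.42. CYP76C1, a cytochrome P450 known for linalool oxidation in flowers, was at -1.86, -3.79, -2.69, -1.73, -1.03 and -1.92, and was thus still low at 3 h. The other 5 were AT4G11320 (cysteine protease 2), AT4G14270, AT1G33970, AT2G21840 and AT4G30990, with mean smallest differences from 1.39 to 1.60. Of these, AT2G21840 was at -0.31 after 1 h and -0.03 after 3 h against 1.29 untreated, so it too had not returned by 3 h. With the normexp background correction, which pulls dim spots together, at least 1 probe of each of these genes fell below 1 except in BGLU44, which stayed at 1.05 on its lower probe (0.91 with cyclic loess).

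**Figure D4:**
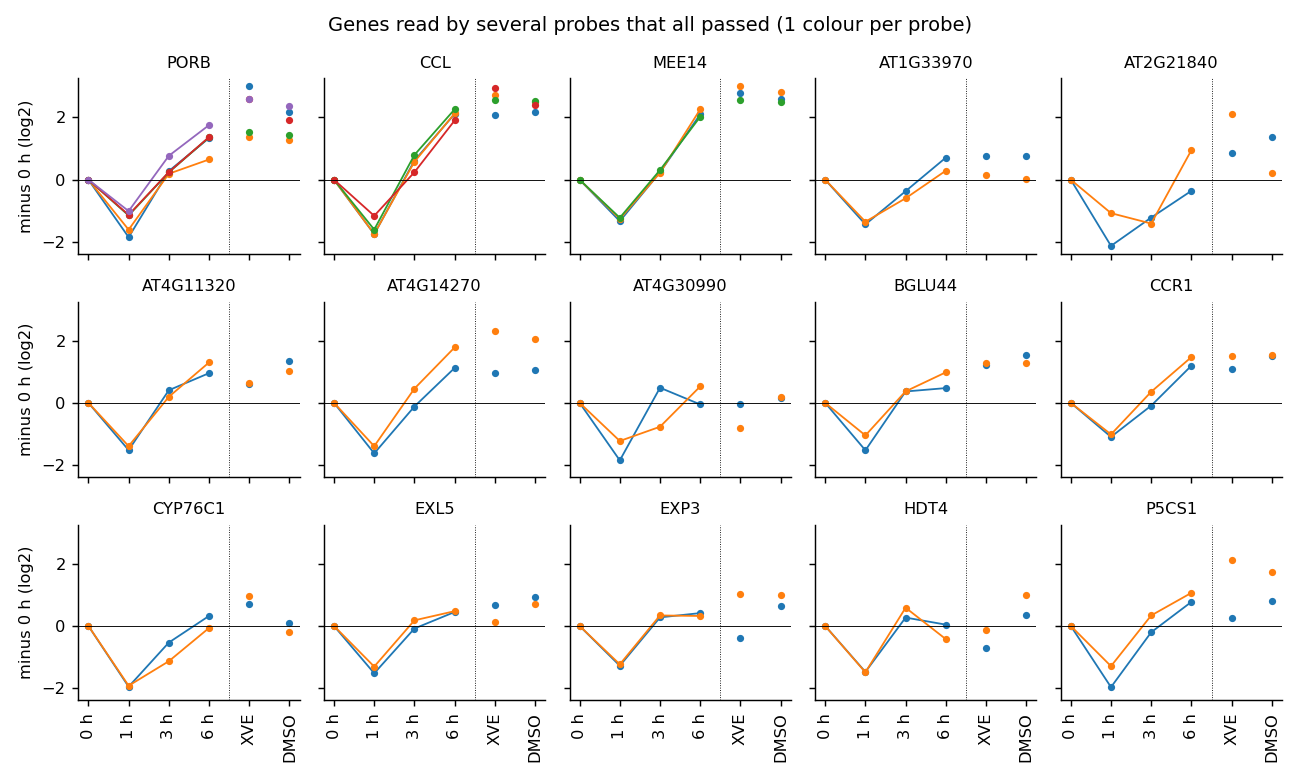
Level minus the 0 h level (log2, vertical axis) on the 6 arrays (horizontal axis) for the 15 genes whose probes all passed, 1 colour per probe. Lines join the time course on slide 1, and unjoined points are the XVE and DMSO arrays on slide 2. PORB, CCL, MEE14 and CCR1 lie above 0 on every array taken at 6 h.

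The light and day phase group held 10 genes with 14 probes. At 3 h its median was 0.21 above the 0 h level, and 10 of the 14 probes were at least 2-fold above 1 h. On all 3 arrays taken at 6 h, 8 of the 14 probes were at least 2-fold above 0 h, against 25 of all 485 members and 1.66% of all probes tested. For 6 h and DMSO the rule had already asked for a level above 1 h, so this share is set in part by it. The 10 and the 8 probes both include 4 of CCL and also CCR1, with 2 probes among the 8, so they are not separate genes. GI (GIGANTEA), which links the clock to flowering, had a passing probe at -1.62 untreated, -2.97 after 1 h, -2.74 after 3 h, -1.50 after 6 h, -0.72 in XVE plants and -0.90 with DMSO, and its other probe had a smallest difference of 0.61. LZF1 (BBX22), a B-box regulator of greening, went from -2.57 untreated to -3.82 after 1 h, -1.77 after 3 h and -1.43 after 6 h, and was at -1.24 and -0.99 on the XVE and DMSO arrays. With the normexp correction the smallest difference of LZF1 was 0.30.

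PIF4, a phytochrome-interacting factor that promotes stem growth in warmth, was at 1.63, 0.01, 0.92, 1.13, 1.70 and 1.32 from 0 h to DMSO in the order used above. PHOT1, a blue light receptor, was at 1.58 untreated, 0.41 after 1 h and 1.66 after 3 h, and at 1.58, 2.27 and 2.29 on the 6 h arrays. PCC1, named for control by pathogens and the clock, had 1 passing probe at 1.18 and 2 others at 0.82 and 0.91, so its probes agreed. Its mean was 0.25 untreated, -0.71 after 1 h, 0.66 after 3 h and 2.34 after 6 h of estradiol, 3.31 in XVE plants and 2.42 with DMSO. UVR8, the UV-B receptor, rested on 1 bright probe, at 5.15 untreated, 3.49 after 1 h and 4.14 after 3 h. LAF3, which acts in far-red signalling, disagreed between probes, with 1.47 on the passing probe and -0.62 on the other.

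Starch and central metabolism gave a similar picture in part. PHS2, the cytosolic glucan phosphorylase of starch breakdown, was at 0.29 untreated, -1.29 after 1 h, 0.49 after 3 h, 2.29 after 6 h, 2.23 in XVE plants and 1.88 with DMSO. ISA3, a debranching isoamylase of starch breakdown, was at -2.47, -3.55, -2.05, -0.25, -0.41 and -0.31 in the same order, and its smallest difference was 0.50 with the normexp correction. CAT3, a catalase that peaks late in the day, had 2 of 8 probes that passed, and the mean of the 8 was 1.49 untreated, 0.87 after 1 h, 1.32 after 3 h and 2.21, 3.20 and 2.64 on the 6 h arrays. All 3 genes had their highest levels at 6 h. MIOX1, an inositol oxygenase, was at -2.23, -3.51, -2.40, -2.05, -1.90 and -2.16, with 0.64 on its other probe. FBA5, an aldolase, was at 0.47, -1.04, -0.18, 0.13, 1.81 and 1.16. UNE15 was at -1.85, -2.97, -1.54, -1.65, -1.45 and -1.77, apart from the others at 1 h only. G6PD1, a glucose-6-phosphate dehydrogenase, passed at 1.11 with -0.08 on its other probe. The group of 10 genes had a median 3 h minus 0 h difference of -0.17.

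Among the 12 plastid and chlorophyll genes, the members beside PORB moved less together. J8, a chloroplast DnaJ protein, was at 5.80 untreated, 3.72 after 1 h and 5.45 after 3 h on its passing probe, while its other probe had a smallest difference of -0.57. PGRL1B, a factor of cyclic electron flow, passed at 1.36 on 1 probe and its others were at -0.27 and -0.13. NPQ7 was at -1.18, -2.97, -1.69, -1.47, -2.09 and -1.74, and MORF6, an RNA editing factor, at 3.5, 2.1, 2.59, 3.30, 2.44 and 3.57. Neither was back at its 0 h level at 3 h. HO2, a heme oxygenase, passed on 1 bright probe (1.05) and its other probe was at -0.12. The 22 photosynthesis genes of a separate list held no member, against 2.48% of all genes, so a list of this size need not hold any. Their median 1 h minus 0 h difference was 0.38. On the XVE array the median level of the 5 mesophyll markers was 6.46, against 4.29 untreated, 4.60 after 1 h, 4.47 after 3 h, 4.13 after 6 h and 5.15 with DMSO, and the part of leaf material in the XVE levels was not tested.

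The cell wall, cuticle and expansion group held 15 genes with 17 probes. Its median 3 h minus 0 h difference was -0.00, over members on both sides of it, and 12 of 17 probes were at least 2-fold above 1 h. EXPA8, GASA6 and AT2G45220 were still at least 2-fold below 0 h at 3 h, at -1.17, -1.49 and -1.02. EXPA8, an expansin, had the largest smallest difference of the group, 2.09, with -1.07 untreated, -3.22 after 1 h, -2.25 after 3 h, -1.13 after 6 h, 0.96 in XVE plants and 0.02 with DMSO. EXPA15, another expansin, was at -1.18, -2.43, -0.61, -1.24, -2.22 and -1.16, so it was also low on the XVE array. These expansins, with EXP3, were members among 25 measured expansins and xyloglucan endotransglucosylases, of which 6 were at least 2-fold below 0 h at 1 h and 1 above (median -0.27). Over all genes 6.13% were at least 2-fold lower and 6.09% higher, with a median of -0.07.

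KCS8 and KCS16, which belong to the ketoacyl-CoA synthases that elongate fatty acids, had smallest differences of 1.56 and 1.21. LACS2, an acyl-CoA synthetase of cutin synthesis, passed on 1 probe at 1.16 and its other probe was at -0.37. GASA6, a gibberellin-regulated peptide, was at 1.81 untreated, -0.08 after 1 h, 0.32 after 3 h, 1.27 after 6 h, 2.53 in XVE plants and 2.15 with DMSO. It remained low at 3 h, as did AT2G45220 (pectin methylesterase 17), at -0.59 against 0.43 untreated. ELP had probes at 1.15 and 0.96, and XYL1, an α-xylosidase of xyloglucan, was at 4.37, 3.13, 4.04 and 4.56 over the time course.

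The nucleolus, RNA polymerase and RNA processing group held 14 genes with 15 probes, with a median 3 h minus 0 h difference of -0.23. FIB2, a fibrillarin that methylates ribosomal RNA, was at 1.98 untreated, 0.34 after 1 h, 2.07 after 3 h, 1.66 after 6 h, 1.00 in XVE plants and 2.11 with DMSO. AT3G11964 (RRP5) had probes at 1.25 and 0.70, and RH36, a DEAD-box helicase, had probes at 1.05 and 0.82. Bright probes read DRH1, a DEAD-box helicase, at 5.48, 3.36, 4.08, 4.91, 5.25 and 6.39, and NUFIP at 5.39, 3.69, 5.0, 5.22, 5.30 and 6.45. HST (HASTY), an exportin-type receptor of the microRNA pathway, was at 4.27, 2.55, 2.87, 3.88, 4.11 and 5.19. NSN1, a nucleolar GTPase, passed by the smallest margin of the group, 1.0033. FIB2, AT3G11964 and RH36 were members among 16 measured ribosome biogenesis genes. Of these, 16 lay below 0 h at 1 h (54.8% over all genes) and 2 at least 2-fold below (6.13% over all genes), with a median of -0.65. At 3 h the list's median difference from 0 h was 0.07. RS41 and RS40, splicing factors, passed on bright probes at 1.04 and 1.03, and the other probes were at 0.82 for RS41 and at -0.25 and 0.12 for RS40.

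The DNA replication, division and meiosis group held 12 genes with 1 probe passing in each. It differed from the wall group in its 3 h levels, with a median 3 h minus 0 h difference of -0.86. No test of this difference was possible. None of its probes was above 0 h at 3 h, and 405 of all 485 member probes were below. ORC2, a subunit of the origin recognition complex, was at -1.87 untreated, -3.16 after 1 h, -2.25 after 3 h, -1.83 after 6 h, -2.17 in XVE plants and -1.91 with DMSO. CDC6, which loads the replicative helicase at origins, was at -2.81, -4.05, -3.51, -2.81, -1.73 and -2.31. Both are dim at 1 h, and with the normexp correction their smallest differences were 0.52 for ORC2 and 0.42 for CDC6. The single-strand binding subunits RPA2 and AT3G52630 (RPA3A) had smallest differences of 1.08 and 1.23. ICK5, an inhibitor of cyclin-dependent kinases, was at 5.04, 3.38, 3.49, 4.71, 7.65 and 6.57, and so highest on slide 2. ABAP1, an armadillo protein that restrains replication, was at -1.02 untreated, -2.93 after 1 h and -1.67 after 3 h.

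A list of replication genes without MCM and histone genes was also read at 1 h. It holds the members ORC2 and CDC6, whose passing probes the rule had set lower than at 0 h. The contrast of 1 h with 0 h is one that the rule used. Of the 22 measured genes of the list, 20 were below 0 h at 1 h, against 54.8% over all genes. At least 2-fold below were 8 of the 22, against 6.13% over all genes. GMI1, which acts in DNA repair, was 1.28 higher, the only one at least 2-fold higher. The list had a median of -0.89 after 1 h, -0.57 after 3 h and -0.13 after 6 h. Only ORC2 and CDC6 of these were members, and TSO2 (0.90), FAS1 (0.82) and RNR2A (0.81) had the next smallest differences. SYP111 (KNOLLE), the syntaxin of cytokinesis, passed on 1 probe at 1.32, but its other probes were at -0.88 and -0.60. It was the only member of 23 measured mitosis and cytokinesis genes, against 2.48% of all genes. None of the 23 was at least 2-fold lower at 1 h, against 6.13% of all genes (median of the list -0.41). ASY3, a meiotic axis protein, had 1 bright passing probe (2.02) and others at -0.47 and -0.09.

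Transcription factors were the largest group, with 23 genes on 1 passing probe each. Their share over all genes was not counted, so nothing is read from the size of the group. DEAR3, an AP2-type factor, had the second largest smallest difference of all members, 2.95, with 5.01 untreated, 1.87 after 1 h, 5.38 after 3 h, 4.82 after 6 h, 5.08 in XVE plants and 7.23 with DMSO. Its other probe was higher at 1 h (1.97) than at 0 h (1.55), a smallest difference of -0.75. DREB1A (CBF3), a cold-induced activator, was near the floor at 1 h, with -1.88 untreated, -4.23 after 1 h, -2.17 after 3 h, -1.66 after 6 h, -1.20 in XVE plants and -0.81 with DMSO. The lowest level well above background at 1 h was -4.52. The bZIP factor BZIP34 was at -2.03, -4.15, -2.40, -1.92, -1.75 and -1.27. With the normexp correction DREB1A was at 0.91 and BZIP34 at 0.81.

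SHR (SHORT-ROOT), a GRAS factor that moves between cells, was at 4.42 untreated, 1.99 after 1 h, 3.33 after 3 h, 3.87 after 6 h, 5.57 in XVE plants and 6.65 with DMSO. AGL17, a MADS-box gene, passed at 1.90 on 1 probe with -0.85 on the other. WRKY49 was at -2.20, -4.14, -2.54, -1.46, -3.03 and -2.34, low at 1 h and, less so, on the XVE array. Of the 23 passing probes 9 were at least 2-fold above 1 h at 3 h, and 1 was above 0 h, against 204 and 80 of all 485 member probes.

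Auxin and other signals were represented by 8 genes, none of them above its 0 h level at 3 h (median 3 h minus 0 h difference -1.11). Of all 485 member probes, 405 were below 0 h at 3 h. YUC1, an enzyme of auxin synthesis, was at 1.37 untreated, -0.44 after 1 h, -0.36 after 3 h, 0.77 after 6 h, 0.82 in XVE plants and 1.70 with DMSO. ACS4, an enzyme of ethylene synthesis, was at 2.06, 0.77, 0.68, 1.99, 1.40 and 2.02. Both were as low at 3 h as at 1 h. ENP (ENHANCER OF PINOID), which acts in organ formation with the auxin pathway, was at 4.20, 2.80, 2.81, 3.81, 5.86 and 4.47, and thus had the same course on slide 1. Slide 2 also held the highest levels of the kinases AGC1.5, at 5.11, 3.27, 4.08, 4.77, 6.39 and 5.46, and D6PKL2, at 4.51, 3.06, 3.90, 4.55, 5.87 and 5.96. AT3G63210 (MARD1), linked to abscisic acid in seeds, was at -0.13, -2.03, -0.43, 0.02, -0.65 and -0.02, and had returned by 3 h. The 27 measured early auxin response genes held no member, with a median of 0.02. As members were 2.48% of all genes, a list of this size need not hold any.

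Vesicle traffic genes were likewise below 0 h at 3 h in all 10 probes (median -1.04), as were 405 of all 485 member probes. Members above 3 at 0 h had a median 3 h minus 0 h difference of -1.08, against -0.45 for the rest. Such bright probes were 5 of these 10, 4 of the 8 of auxin and other signals and 1 of the 17 of the wall group. Not every group followed this order. Bright probes were 7 of the 15 of the nucleolus group (median 3 h minus 0 h difference -0.23) and 6 of the 16 of the plastid group (-0.43). In the replication group, with a median of -0.86, they were 2 of 12. The part of brightness in the group medians was not tested. The exocyst subunits EXO70A2, EXO70H4 and EXO70C2 had smallest differences of 1.99, 1.85 and 1.22. EXO70A2 was at 1.21 untreated, -0.78 after 1 h, 0.43 after 3 h, 1.41 after 6 h, 0.77 in XVE plants and 2.21 with DMSO. EXO70C2, a dim probe, was lower at 3 h (-4.58) than at 1 h (-4.05), and its smallest difference was 0.13 with the normexp correction. DL1E, a dynamin-like protein, was at -1.41, -3.89, -3.64, -2.05, -3.33 and -1.15, and its other probe was at 0.10. SNF7.1, an ESCRT subunit, and RAB8C, a small GTPase, passed at 1.72 and 1.67, with other probes at -1.39 for SNF7.1 and at -1.18 and -0.76 for RAB8C. All 3 mitochondrial import genes, TIM50, Erv1 and TIM10, rested on probes above 3 at 0 h. They had 3 h minus 0 h differences of -1.37, -1.44 and -1.18, and the other probes of TIM50 and TIM10 were at 0.03 and -0.10.

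**Figure D5:**
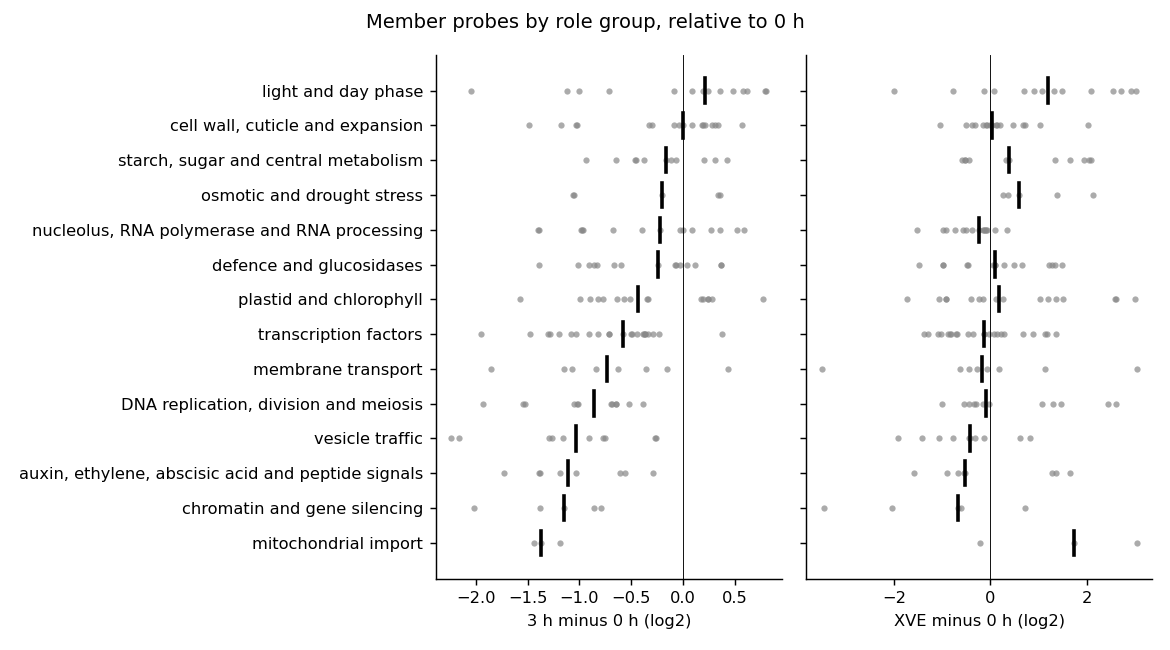
Member probes of the 14 role groups (rows) by 3 h minus 0 h (left, log2) and XVE minus 0 h (right, log2). Points are probes and bars are group medians, ordered by the 3 h median, which runs from 0.21 for light and day phase to -1.37 for mitochondrial import.

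Defence genes and glucosidases held 13 genes. PYK10, a myrosinase abundant in roots, passed on 2 of 7 probes, and its 5 others were at 0.23 to 0.77, all lower at 1 h. It was the only one of 3 measured root markers among the members. BAT5, a transporter for glucosinolate synthesis, passed at 2.35 on a bright probe with others at 0.25 and 0.04. BGLU13 was at 3.79 untreated, 1.15 after 1 h, 2.78 after 3 h, 2.61 after 6 h, 3.88 in XVE plants and 5.28 with DMSO. CES101, a lectin receptor kinase, stood out by its DMSO level, with 0.72, -1.08, -0.13, 0.54, 1.01 and 4.05. THI2.1, a thionin, was at 6.12, 4.23, 4.73, 5.80, 6.78 and 7.25. The 20 measured jasmonate genes went the other way at 1 h, with 16 at least 2-fold above 0 h, against 6.09% of all genes. Their median was 1.80, and none was a member, against 2.48% of all genes.

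Chromatin genes were 5. AT1G54840 (IDM2), which acts against DNA methylation, was at 5.11 untreated, 2.39 after 1 h, 3.10 after 3 h, 4.48 after 6 h, 1.65 in XVE plants and 4.97 with DMSO, so its lowest level was on the XVE array. FIS2, a Polycomb protein of the seed, was at -0.43, -2.15, -1.58, 0.17, -1.09 and 0.83. FLD, a demethylase-like regulator of flowering, was at 0.87 untreated, -1.65 after 1 h, -0.50 after 3 h, -0.37 after 6 h, -1.18 in XVE plants and 1.79 with DMSO. SDG35, a SET domain protein, rested on a bright probe at 6.77, 4.94, 5.91, 6.52, 7.49 and 7.76. HAF2, a TAF1-type histone acetyltransferase, was at 0.03, -1.12, -0.77, 0.03, -0.59 and 0.21. None of the 5 was above its 0 h level at 3 h, and 405 of all 485 member probes were below theirs.

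Among transporters, UMAMIT44 had 2 of 3 passing probes and a mean of -0.99 untreated, -2.30 after 1 h, -0.86 after 3 h, -0.85 after 6 h, -0.46 in XVE plants and -0.56 with DMSO. UMAMIT12, of the same family, was at 1.92, 0.35, 0.85, 1.95, 4.96 and 5.62, and so had its high levels on slide 2. Such a parting of the slides, at least 2-fold, was seen for 18 of 485 members (3.71%), against 0.49% of all probes, but the rule had already set DMSO above 1 h in every member. Dim probes read ABCG2, an ABC transporter of the suberin barrier, at -2.62, -4.25, -3.47, -2.41, -2.90 and -2.90, and PUP5, of the purine permeases, at -1.97, -3.40, -2.33, -1.83, -2.59 and -2.25. ER-ANT1, an adenine nucleotide carrier, passed at 1.66 and its other probe was at -1.18. Of the osmotic stress genes, MSRB5, a methionine sulfoxide reductase, had returned at 3 h, with -1.66, -3.13, -1.30, -1.83, -1.29 and -1.46, and its other probe was at 0.86. RCI3, a cold-induced peroxidase, had not, with -0.11, -1.19, -1.17, 0.16, 1.28 and 0.43. RD19, a drought-induced cysteine protease, passed at 1.60 on 1 of 4 probes with others at -0.62, 0.22 and 0.51.

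The largest smallest difference belonged to AT1G57690, which has no symbol. It was at 2.42 untreated, -1.36 after 1 h, 1.88 after 3 h, 1.89 after 6 h, -1.21 in XVE plants and 2.46 with DMSO, so it was low on 2 arrays, 1 h and XVE. AT4G14280 had the same form, with 1.64, -1.23, 1.16, 1.11, -0.64 and 2.14. AT3G62550 was at -0.47 untreated, -2.79 after 1 h, -0.16 after 3 h, 1.61 after 6 h, 2.84 in XVE plants and 2.33 with DMSO, the shape of PORB and CCL. AT1G56300 shared it, with -1.53, -3.22, -1.38, 2.85, 2.55 and 2.56. GRP2, a cold shock domain protein, passed at 2.23 on 1 bright probe with others at -0.92 and -0.12. The farthest below 1 h at 3 h was AT1G76220, at -2.58 against -1.74, followed by PHS1 (POOR HOMOLOGOUS SYNAPSIS 1), which acts in meiotic pairing, at -2.78 against -2.02.

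AT1G34042 and AT1G76470 were also lower at 3 h than at 1 h, at -0.63 against 0.05 and at -2.69 against -2.06. The lowest XVE levels relative to 1 h belonged to AT3G27860, AT2G35345, AT1G15125 and AT2G43890, beside IDM2. AT3G27860 was at 4.79, 2.77, 3.51, 3.99, 1.79 and 4.12, and AT2G43890 at -0.60, -3.37, -1.19, -1.84, -3.98 and -0.57. AT3G17740 lay at the other end, with 2.69 after 1 h against 7.37 in XVE plants and 7.42 with DMSO, but its other probe was at -0.51.

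The remaining 8 of the 20 largest differences belonged to genes with a locus name only, of which 7 had 1 probe judged. AT3G11380 was at 5.35, 2.61, 3.97, 5.10, 5.46 and 7.28, and AT5G17970 at 2.06, -0.55, -0.15, 1.62, 2.45 and 4.89, so both were highest with DMSO. AT2G39920 was at -0.87, -2.98, -1.09, 0.60, -0.16 and 0.12, close to its 0 h level again at 3 h. AT4G17616, AT1G63057, AT1G09600 and AT1G31250 were between 1.16 and 1.44 below 0 h at 3 h. AT4G01650 passed at 2.28, with -0.04 on its other probe.

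Some genes had more than 1 passing probe but others that failed. AT1G15480 had 3 of 4 probes that passed, from 1.02 to 1.20, and the other was at 0.57. WLIM1, a LIM protein that bundles actin, had 1.06 and 1.08 with 0.91 on the other, so its probes agreed. AT1G26850 had 1.52 and 1.65 with 0.26 and 0.38, and AT3G10915 had 1.04 and 1.58 with -0.99.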

How the data were processed

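RNA of 6 pools was measured on 1 single-colour array each, and the source names gave each sample its group. Scanner files hold processed intensity and flags; per the file headers this intensity was background-subtracted by Agilent Feature Extraction, version 10.5.1.1 according to the submitters' processing notes. The values used are the log2 levels of the table the authors deposited, with no scale stated there. On each array 99.9% of its values lay within 0.01 of a constant offset from log2 processed intensity minus the array's 75th percentile. The median over all probes was -2.079 untreated, -2.116 after 1 h, -2.142 after 3 h, -2.108 after 6 h, -2.079 for XVE and -2.136 for DMSO. No spot was saturated.

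Of 43603 probes, 34285 matched 1 locus through RefSeq accessions (TAIR10.1 gene table, names and gene order only) and 9318 none; another 130 probes passed the thresholds with no locus. Gene lists (21 lists, 404 entries, 22 not matched), role groups and members were chosen with earlier results of these data known. AT3G09440 was left out as a heat shock gene from general knowledge. A gene in a list is the mean of its probes judged by the rule. The genes named were the 20 with the largest smallest difference, up to 5 per role group, the 5 farthest each way on the 3 h and XVE arrays, genes with several passing probes, and the 3 probes nearest the threshold on each side, some by their smallest difference alone; any member could be named.

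With 1 array per group no test was made, and precision is limited by how few arrays there are; members were counted beside all probes well above background on the arrays compared. The rule was also run on simulated levels with the same noise for all probes and no slide, row or brightness effects. That run checks only that the rule picks lowered probes, and says nothing on the members. Alternatives were the scanner values minus the 75th percentile, quantile scaling, cyclic loess and the normexp correction with an offset of 50 (on median spot and background signals), other filters and thresholds, leaving out arrays, and gene means; centring within bands of rows and leaving out bright members and splitting by the 3 h and XVE levels were added after the data were seen. Python 3.11.15, pandas 2.3.3, R 4.3.3 and limma 3.58.1 were used. Probe, promoter and protein sequences were not used here.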

Additional observations from a re-analysis of the deposited data

How the results depend on the processing

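Of 485 members, 199 stayed at least 1 lower under all 5 scalings. 1 of the 5, the scanner values minus the 75th percentile, nearly repeats the deposited scale and kept all 485. Quantile scaling kept 426, cyclic loess 388, centring within 12 bands of rows 386 (an alternative added after the data were seen) and the normexp correction 252. The number of probes that passed was 289 with the normexp correction, 763 with no filter on dim probes, 900 without the 0 h array, 751 without the 6 h estradiol array, 678 without the DMSO array, 293 with the XVE array added to the rule and 109 at a threshold of 1.5. Among genes, 334 passed on the mean of their probes, 333 of them members. For the 298 member genes with 1 probe judged, this mean is the passing probe itself and could not fail. Of the 158 member genes with several probes judged, 35 passed on the mean. With the normexp correction RBOHA was at -0.10, the only member whose smallest difference turned, and the members' median XVE minus 1 h difference was 0.88 instead of 1.24. The other values for the 3 h and XVE arrays moved by at most 0.25, or by no more than 1.5 times for counts, under the scalings and without bright members. The median 1 h minus 0 h difference of the reference genes was -0.10, and 0.11 with quantile scaling and 0.08 with cyclic loess; that of the photosynthesis genes was 0.65 with cyclic loess instead of 0.38. The cause of these shifts was not tested. The planned search of member promoters for motifs was not run, and neither was its alternative. No paired analysis was possible because each group holds 1 array. Signal limits 23 members, whose 1 h level lay within 0.5 of the lowest level well above background.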
